A study of Mus musculus with 9 samples.

Results

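Uterine luminal epithelium of mice that overexpressed progesterone receptor isoform B (ePRBoe) was compared directly with that of mice that overexpressed isoform A (ePRAoe), gene by gene. The comparison used 6 of the 9 libraries of the series and the 11997 of 15158 listed genes that reached 1 FPKM (a level of fragments scaled to gene length and library size) in at least 3 of those 6 libraries. The other 3161 genes stayed below that level and were not tested. The ePRAoe females had the genotype Wnt7acre/+PgrALsL/+ and the ePRBoe females Wnt7acre/+PgrBLsL/+, with 3 libraries each, and the 3 control libraries came from Wnt7acre females. All groups thus carried the cre driver, which acts in the epithelium, and no deletion of the mouse's own Pgr gene is listed for any of them. Females were kept to 8 weeks of age, mated, and sampled by laser capture on pregnancy day 4. The labels call the libraries bioreplicates without naming animals, so p-values measure the spread between these libraries.

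The progesterone receptor is a nuclear receptor that binds DNA once it holds the hormone. A single gene, Pgr, yields both isoforms from different start sites: isoform B has a longer amino-terminal end with an added activation region, and isoform A lacks it and can hold back other steroid receptors. In the epithelium around implantation the receptor stops estrogen-driven growth and turns on signals such as Indian hedgehog that act on the stroma underneath.

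The labels place all 3 ePRBoe libraries, ePRAoe replicate 2 and Wnt7acre replicate 3 in sequencing run 1, and the remaining libraries in runs 2 and 3. Only ePRAoe replicate 2 therefore shared a run with ePRBoe. Differences are given on the log2(FPKM + 1) scale, ePRBoe minus ePRAoe, from 2 fits. The run-adjusted fit used all 9 libraries with terms for genotype and run, and the direct fit used the 6 libraries with no run term. In the run-adjusted difference ePRAoe replicate 2 had a weight of -0.667, against -0.167 for each of the other ePRAoe libraries and 0.333 for each ePRBoe library. Genes at 1 FPKM or more numbered 11427, 11074 and 11694 in the ePRAoe libraries and 12143, 12300 and 11941 in the ePRBoe libraries, so every ePRBoe library listed more of them. Across genes the ePRBoe libraries correlated with each other at 0.971 to 0.975, the ePRAoe libraries at 0.926 to 0.963, and libraries of different isoforms at 0.926 to 0.962. Epithelial markers were high in every library, with 358 to 598 FPKM for Cldn3 and 125 to 207 for Epcam in the 6 libraries. The gland factor Foxa2 and the T cell gene Cd3e did not reach the level for testing, but many markers of other cell types did. Tested were 5 of 12 gland, 21 of 22 stroma, 16 of 18 macrophage and dendritic cell, and 15 of 18 natural killer and T cell markers.

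Total Pgr overlapped between the isoform groups. In mm10, where Pgr spans chr9:8899833-8968611 on the forward strand, its level was 41.7, 49.5 and 42.8 FPKM in ePRAoe replicates 1 to 3 and 38.1, 38.3 and 45.9 in ePRBoe, against 17.4, 3.82 and 6.62 in Wnt7acre. All 6 overexpressing libraries lay above all controls. The direct difference was -0.13 (95% interval -0.44 to 0.18, adjusted p = 0.675) and the run-adjusted one -0.10 (interval -1.04 to 0.83, adjusted p = 0.910). An exact two-sided permutation test over the 6 libraries gave p = 0.3, where 0.1 is the smallest value that 20 regroupings allow. A value per gene does not separate the isoforms' transcripts from each other or from the mouse's own. Wnt7a, the gene that names the cre driver, spread widely at 36.6, 10.1 and 15.7 FPKM in ePRAoe and 50.0, 22.7 and 14.1 in ePRBoe. Its run-adjusted difference of 1.07 (SE 0.53) and direct difference of 0.46 did not pass (adjusted p = 0.314 and 0.724, permutation p = 0.6).

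In the run-adjusted fit 40 of 11997 genes (0.333%) passed an adjusted p of 0.05 with limma and Benjamini-Hochberg adjustment, 39 of them higher in ePRBoe (0.325%) and 1 lower (0.00834%). Of the 39 higher genes, 8 were on the lists of macrophage and natural killer cell markers, 6 were histone genes, and the largest differences were those of Calca, Guca2b and Lcn2, secreted products of epithelium. In all 40 the 3 ePRBoe values and the 3 ePRAoe values did not overlap, the direct fit gave the same sign, and its unadjusted p was under 0.05. Over all 11997 genes the groups did not overlap in 2706 (22.6%), and 1971 had an unadjusted p under 0.05 in the direct fit. These features come from libraries that also gave the calls, so they are no separate support. The direct fit called 0 genes after adjustment (0%), with 1615 higher and 356 lower at an unadjusted p under 0.05, and its adjusted p for the 40 genes ran from 0.0642 to 0.217. With run 1 alone behind the contrast, which sets the 3 ePRBoe libraries against ePRAoe replicate 2, limma called 445 genes higher (3.71%) and 140 lower (1.17%), including 39 of the 40. No gene was called without ePRAoe replicate 2, ePRBoe replicate 1 or ePRBoe replicate 2 (879, 1476 and 1650 genes at an unadjusted p under 0.05), while 634 were called without ePRAoe replicate 1, 623 without Wnt7acre replicate 1 and 14 without Wnt7acre replicate 3.

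**Figure D1:**
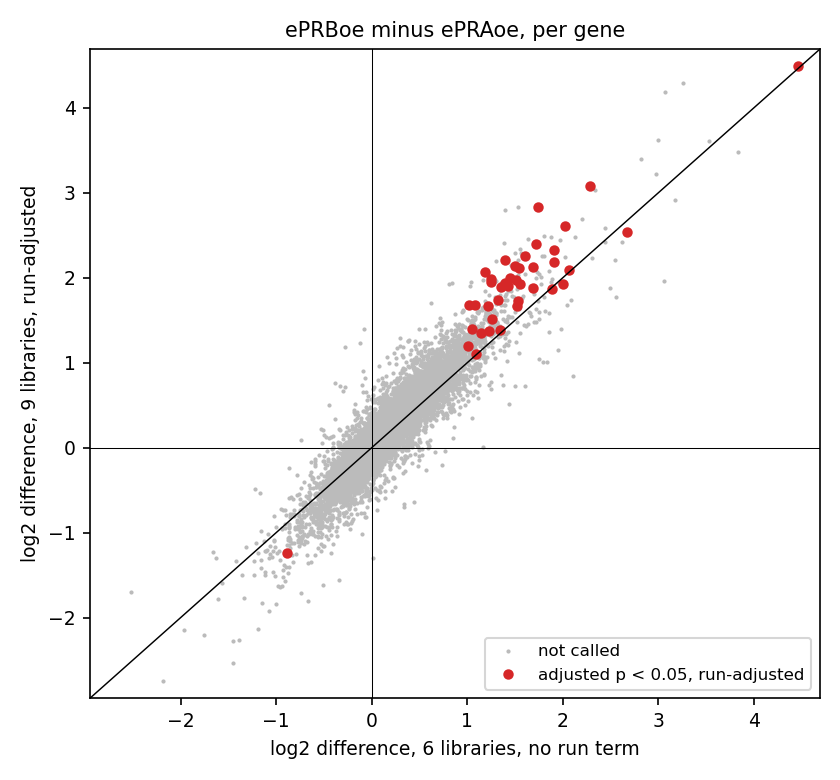
Each point is 1 of 11997 genes. The horizontal axis gives the log2 difference ePRBoe minus ePRAoe from the 6 libraries without a run term, the vertical axis that from 9 libraries with run adjusted, the diagonal marks equal values, and red points are the 40 called genes. The called genes lie on the same side of 0 on both axes, and most higher ones lie above the diagonal.

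Calca showed the largest difference among the called genes. It encodes calcitonin and the calcitonin gene-related peptide, and calcitonin is a known progesterone-induced product of the uterine epithelium. Calca (chr7:114631478-114636357, reverse strand, mm10) was listed at 0.302, 0.151 and 0.151 FPKM in ePRAoe, at 53.0, 29.3 and 10.2 in ePRBoe, and at 0 in all 3 Wnt7acre libraries. The ePRBoe libraries were thus the only ones of the 9 above 1 FPKM. The difference was 4.49 run-adjusted (SE 0.62, adjusted p = 0.0366) and 4.46 direct (SE 0.52, adjusted p = 0.0832). Because the ePRAoe values lie close to 0, the size of this difference depends on the pseudocount of 1.

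Guca2b and Lcn2, both secreted epithelial products, were higher in ePRBoe than in ePRAoe. The ePRBoe libraries lay below all controls for Guca2b and overlapped the controls for Lcn2. Guca2b encodes uroguanylin, a peptide that acts on guanylate cyclase C and fluid transport in epithelia. It stood at 3.68, 3.67 and 18.8 FPKM in ePRAoe, 40.1, 35.1 and 32.4 in ePRBoe and 107, 165 and 51.8 in Wnt7acre (chr4:119656607-119658954, reverse strand). Every ePRBoe library lay between the ePRAoe and the control libraries, with a difference of 3.08 run-adjusted (SE 0.31, adjusted p = 0.0204) and 2.28 direct (adjusted p = 0.126). Lcn2, an iron-siderophore binding lipocalin induced by estrogen in the uterus, was at 38.1, 7.66 and 29.1 FPKM in ePRAoe, 94.4, 91.5 and 42.5 in ePRBoe and 121, 103 and 44.8 in Wnt7acre. Its difference was 2.84 run-adjusted (SE 0.38, adjusted p = 0.0360) and 1.74 direct (adjusted p = 0.217), and ePRAoe replicate 2 was the lowest library. Gabrp, the pi subunit of the GABA-A receptor and a chloride channel subunit of uterine epithelium, had 0.116, 0.603 and 1.07 FPKM in ePRAoe, 7.02, 3.71 and 6.21 in ePRBoe and 85.2, 199 and 117 in Wnt7acre. Both isoform groups stood far below the controls, and ePRBoe was above ePRAoe by 2.09 run-adjusted (SE 0.27, adjusted p = 0.0339) and 2.07 direct (adjusted p = 0.103).

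The promoters of the genes with the largest differences are shown because the receptor acts through DNA. The 250 bases before the RefSeq start site (GRCm38.p6, the same coordinates as mm10) are printed 5′ to 3′ on the gene's own strand. The windows lie at chr7:114636358-114636607 and chr4:119658946-119659195, both on the reverse strand.
Calca: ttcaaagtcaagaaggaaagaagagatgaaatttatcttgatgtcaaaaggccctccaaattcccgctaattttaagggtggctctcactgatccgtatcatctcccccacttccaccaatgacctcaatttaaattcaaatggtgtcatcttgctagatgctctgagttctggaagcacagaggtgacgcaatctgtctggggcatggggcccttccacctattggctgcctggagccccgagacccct
Guca2b: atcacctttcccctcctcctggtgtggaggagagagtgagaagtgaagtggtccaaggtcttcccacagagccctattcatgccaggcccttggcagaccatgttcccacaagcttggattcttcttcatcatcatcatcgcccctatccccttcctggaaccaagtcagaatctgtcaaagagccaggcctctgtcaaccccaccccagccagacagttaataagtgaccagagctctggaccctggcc
The letters searched, on both strands, were the 6-letter steroid receptor element AGAACA, the palindrome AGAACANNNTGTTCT, and its inner core ACANNNTGT, which the palindrome contains. Neither window above holds the 6-letter element or a core, so no letters are in capitals. Promoter entries were found for 23 of the 39 higher genes and 9420 of the 11997 tested. The 6-letter element occurred in 6 of the 23 (26.1%) and in 10.5% of all 9420, a core in 3 (13.0%) and in 3.35%, and the palindrome in none of either. The 6 were Apoe, C1qc, Klra7, Nkg7, Spint3 and Ugt1a7c, which include the immune cell genes C1qc, Klra7 and Nkg7. The 3 promoters with a core were those of Lcn2, Klra7 and Ugt1a7c, at chr2:32387874-32387900 (reverse), chr6:130233445-130233471 (reverse) and chr1:88094889-88094915 (forward), 152, 140 and 103 bases before the start. The core is in capitals.
Lcn2: agtatttcaACAGAATGTactggcaat
Klra7: gcatctggcACAATATGTttcttctct
Ugt1a7c: tctaagctcACATTGTGTgattctacc
These are matches of letters only, and the data hold no measurement of receptor binding.

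Immune cell genes formed the broadest group among the higher genes. Tyrobp, the adaptor that signals for activating receptors of macrophages and natural killer cells, had the smallest adjusted p of the comparison. Its levels were 30.9, 16.4 and 22.4 FPKM in ePRAoe, 103, 99.3 and 83.1 in ePRBoe and 71.4, 57.9 and 29.6 in Wnt7acre. All ePRBoe libraries exceeded all others, by 2.61 run-adjusted (SE 0.18, adjusted p = 0.0100) and 2.02 direct (adjusted p = 0.0755). Fcer1g, the partner chain of Fc receptors, went from 15.6 to 19.1 FPKM in ePRAoe to 44.8 to 56.6 in ePRBoe (1.73, adjusted p = 0.0187). C1qa and C1qc, chains of complement component C1q made by macrophages, differed by 2.12 and 1.67 (adjusted p = 0.0339 and 0.0273). C1qa was at 4.36, 1.26 and 3.30 FPKM in ePRAoe and 11.3, 11.9 and 7.10 in ePRBoe, and C1qc at 12.0, 7.64 and 5.41 against 28.0, 26.5 and 20.6.

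Natural killer and T cell genes were likewise higher in ePRBoe than in ePRAoe. Nkg7, a cytotoxic granule protein, had 5.99, 2.80 and 6.55 FPKM in ePRAoe and 20.7, 19.4 and 14.96 in ePRBoe, a difference of 2.40 (SE 0.20, adjusted p = 0.0125; direct 1.71, adjusted p = 0.103). Il2rb, the shared beta chain of the receptors for interleukins that sustain these cells, had 7.84, 3.36 and 9.05 against 25.4, 22.7 and 16.3 (2.26, adjusted p = 0.0214). Cd52, a surface glycoprotein of lymphocytes, had 14.8, 20.7 and 27.5 against 76.9, 80.1 and 80.2 (2.19, adjusted p = 0.0339). The ePRBoe libraries lay above every Wnt7acre library in each of these 3 genes. Selplg, a selectin ligand of leukocytes, and Klra7, a natural killer cell receptor with close relatives in the genome whose reads may be shared, were higher by 1.99 and 2.21 (adjusted p = 0.0204 and 0.0359). Klrd1, the CD94 chain of natural killer receptors, was higher by 1.93 (adjusted p = 0.0376).

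As whole lists, the markers of immune cells were higher in every ePRBoe library than in every ePRAoe library. Of 16 tested macrophage and dendritic cell markers 4 passed the run-adjusted test, all higher, and in 14 the groups did not overlap, all with ePRBoe above; the median difference was 1.61 run-adjusted and 1.21 direct, beside 0.144 and 0.0998 over all genes. Of 15 natural killer and T cell markers 4 passed, all higher, and 12 did not overlap, all with ePRBoe above (median 1.42 and 1.08). Over all genes, the groups did not overlap with ePRBoe above in 16.6% and with ePRBoe below in 5.94%. That split moved with the scaling: of the genes without overlap, 73.7% were higher in ePRBoe in the deposited values, 59.9% after TPM rescaling, 46.3% with median-of-ratios factors and 43.4% after quantile normalization. The median-of-ratios factors shifted the direct median of all genes from 0.0998 to -0.0236, and under them 13 of the 16 macrophage markers and 12 of the 15 natural killer and T cell markers still lay apart with ePRBoe above.

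Summed over the list, macrophage and dendritic cell markers came to 264, 188 and 177 FPKM in ePRAoe, 480, 486 and 416 in ePRBoe and 482, 241 and 237 in Wnt7acre. Natural killer and T cell markers came to 72.1, 50.6 and 83.5, to 212, 226 and 172, and to 88.3, 97.5 and 51.5 FPKM in the same order. Wnt7acre replicate 1 matched ePRBoe for the macrophage list, while no control library did for the natural killer list. In these bulk samples fewer cells of a type and less RNA per cell cannot be told apart. Class II antigen presentation had 0 of 8 called and 6 apart with ePRBoe above (median 1.14 and 0.98), with Cd74, the invariant chain, at 50.5, 21.7 and 29.9 FPKM in ePRAoe and 62.5, 109 and 68.2 in ePRBoe (1.67, adjusted p = 0.0587). Among 11 class I genes, 22 interferon-induced genes and 10 chemokines and cytokines none was called. In each of these lists 2 lay apart with ePRBoe above, beside 16.6% of all genes. Their medians were 0.87, 1.08 and 0.62 run-adjusted and 0.54, 0.43 and 0.46 direct. After TPM rescaling or with median-of-ratios factors 0 of the 22 interferon-induced genes lay apart.

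Markers of the tissue under the epithelium were also higher in ePRBoe by their median difference, without any call. Of 21 stroma markers 0 passed, 21 had a positive difference and 13 lay apart with ePRBoe above (median 0.80 and 0.69). Over all genes 16.6% lay apart in that direction. Their sum was 372, 363 and 592 FPKM in ePRAoe, 640, 783 and 818 in ePRBoe and 162, 182 and 211 in Wnt7acre, so the groups stood in 3 steps with no overlap. Vim, the mesenchymal filament, was at 33.9, 34.9 and 51.1 FPKM in ePRAoe and 61.1, 67.9 and 83.4 in ePRBoe (0.80, adjusted p = 0.189). Endothelium markers (8 tested, 0 called, 5 apart with ePRBoe above) and smooth muscle markers (6, 0 and 1) had medians of 1.01 and 0.75. The smooth muscle sum was 43, 27 and 56.4 FPKM in ePRAoe and 62.2, 163 and 67.5 in ePRBoe, where replicate 2 stood out. The mean log2 level of that list overlapped, at 1.95, 1.46 and 2.16 in ePRAoe and 2.1, 3.88 and 2.04 in ePRBoe. Of 26 collagen and basement membrane genes 0 were called and 14 lay apart with ePRBoe above (median 0.63), and 3 mesothelium markers had a median of 0.44 with 0 called. The part of these cell types in the called genes was not tested.

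Luminal epithelium markers did not follow that order. Of 23 luminal epithelium markers 0 were called (median 0.07 in each fit). Of the 23, 1 lay apart with ePRBoe above and 4 with ePRBoe below, beside 16.6% and 5.94% of all genes. The mean log2 level was 6.36, 6.02 and 5.94 in ePRAoe and 6.33, 6.12 and 6.07 in ePRBoe. Krt18, an epithelial keratin, stood at 260, 411 and 283 FPKM in ePRAoe and 380, 335 and 411 in ePRBoe (adjusted p = 0.811). Junction and polarity genes (24 tested) had 0 called, 1 apart with ePRBoe above and 5 below, with a median of -0.03 run-adjusted and 0.01 direct. Gland markers were mostly higher in ePRBoe, but only 5 of 12 were tested. Of the 5, 0 were called, 4 had a positive difference, and the median was 0.81 run-adjusted and 0.89 direct. Spink1 and Gas1 lay apart with ePRBoe above and 0 lay apart below, beside 16.6% and 5.94% of all genes. Wnt7b and Sox9 overlapped, and Aldh1a1 went the other way (-0.90 run-adjusted and -0.55 direct). All 12 listed gland markers summed to 19.4, 17.6 and 18.9 FPKM in ePRAoe, 95.6, 25.4 and 27.9 in ePRBoe and 89.4, 227 and 124 in Wnt7acre, with ePRBoe replicate 1 far above the other ePRBoe libraries.

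**Figure D2:**
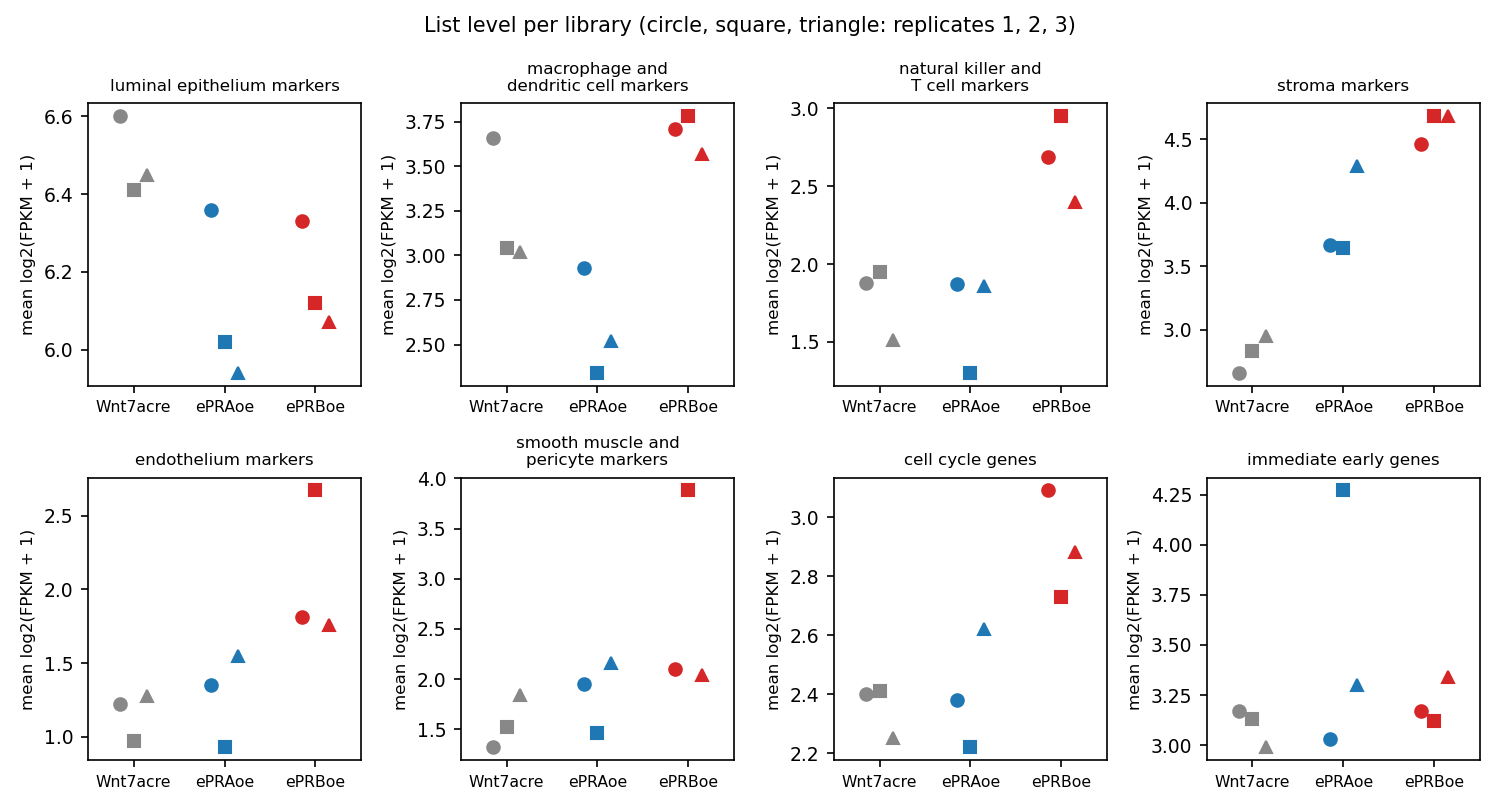
Each panel shows the mean log2(FPKM + 1) of a list in each of the 9 libraries (vertical axis; the ranges differ between panels), by group, with circle, square and triangle for replicates 1, 2 and 3. Immune and stroma lists are higher in every ePRBoe library than in every ePRAoe library, luminal markers overlap, and ePRAoe replicate 2 stands alone at 4.27 for immediate early genes.

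Replication-dependent histone genes were the second group, and this family was looked up after its members had been seen among the calls. Hist1h1b, a linker histone of dividing cells, had 8.14, 3.54 and 8.14 FPKM in ePRAoe, 20.6, 20.6 and 17.5 in ePRBoe and 7.56, 5.74 and 3.06 in Wnt7acre. Every ePRBoe library had more than any other, by 2.14 run-adjusted (SE 0.18, adjusted p = 0.0125) and 1.502 direct (adjusted p = 0.104). Hist1h2bm had 13.5, 6.14 and 16.4 against 33.5, 21.1 and 27.1 (2.07, adjusted p = 0.0330), and Hist1h2bf 6.18, 1.41 and 4.06 against 9.87, 8.29 and 10.6 (1.99, adjusted p = 0.0214). Of 47 tested histone genes 6 were called, all higher, beside 0.325% of all genes called higher. Of the 47, 29 lay apart with ePRBoe above and 0 below, beside 16.6% and 5.94% of all genes. The median of the 47 was 1.00 run-adjusted and 0.80 direct. Their mean log2 level was 2.54, 2.35 and 2.54 in ePRAoe, 3.39, 3.21 and 3.22 in ePRBoe and 1.91 to 2.57 in Wnt7acre. Members of this family are near copies, and reads could be shared among them.

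The cell cycle list, 28 tested genes, had 0 calls, with 13 apart and ePRBoe above in all 13 (median 0.89 run-adjusted and 0.68 direct). Over all genes 16.6% lay apart with ePRBoe above. Mki67, a marker of cycling cells, was at 4.67, 2.49 and 8.88 FPKM in ePRAoe and 13.5, 10.1 and 13.5 in ePRBoe (1.73, adjusted p = 0.0663). Top2a, the topoisomerase of dividing cells, overlapped at 40.9, 20.8 and 40.7 against 21.3, 16.7 and 37.3 (0.12, adjusted p = 0.906). The 2 proliferation genes thus did not share an order.

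Other higher genes fell outside the immune lists and the histone family. Lancl3, a LanC-like protein, had 0.543, 0.116 and 0.155 FPKM in ePRAoe and 8.47, 5.37 and 7.60 in ePRBoe (chrX:9199902-9268085, forward strand), with 1.40 at most in Wnt7acre. Its difference was 2.54 run-adjusted (SE 0.33, adjusted p = 0.0339) and 2.68 direct (adjusted p = 0.0642, the lowest of the direct fit). Ctsl, the lysosomal protease cathepsin L known for its progesterone response in uterine epithelium of other mammals, was at 23.9, 14.4 and 30.0 FPKM in ePRAoe, 51.7, 55.1 and 50.2 in ePRBoe and 86.8, 103 and 66.3 in Wnt7acre. Its run-adjusted difference was 1.67 (adjusted p = 0.0183), and it was the only called gene among 27 proteases and inhibitors. Of those 27, 12 lay apart with ePRBoe above and 1 with ePRBoe below, beside 16.6% and 5.94% of all genes. Their median was 0.83 run-adjusted and 0.69 direct. Another 21 called genes fell outside the naming rule and are listed after their values were seen: AW112010, Gngt2, Apoe, Hist1h2ak, Klrd1, Spint3, Snhg18, Fxyd5, S100a4, Gimap1, Ugt1a7c, Galns, Hist1h2bh, Hist1h2bl, Emid1, Rab34, Tmem119, Plekhb1, Hoxa11os, Wfdc1 and Dtd1. Among these, Hist1h2ak, Hist1h2bh and Hist1h2bl belong to the histone family above, and Klrd1 is on the natural killer and T cell list. Ugt1a7c shares exons with its gene cluster, and Hoxa11os runs antisense to Hoxa11, so their reads may not be separable.

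March6, a ubiquitin ligase of the endoplasmic reticulum, was the only gene called lower. It stood at 70.0, 71.5 and 37.3 FPKM in ePRAoe, 31.7, 31.0 and 29.2 in ePRBoe and 45.9, 23.5 and 49.8 in Wnt7acre (chr15:31455891-31531053, reverse strand). The lowest ePRAoe library was near the ePRBoe values, and the difference was -1.23 run-adjusted (SE 0.14, adjusted p = 0.0214) and -0.88 direct (adjusted p = 0.165). The 4 next genes by p did not pass. Alpl, tissue-nonspecific alkaline phosphatase, had 7.99, 44.4 and 29.6 FPKM in ePRAoe, 3.64, 3.417 and 5.53 in ePRBoe and 1.41 to 2.00 in Wnt7acre (-2.74, adjusted p = 0.0663). B3gnt5, a glycosyltransferase, had 47.0, 31.3 and 15.03 against 7.72, 14.6 and 9.80 (-1.49, adjusted p = 0.0663). Styk1, a kinase-like membrane protein, and Dhx33, an RNA helicase, differed by -1.24 and -0.84 (adjusted p = 0.0663 and 0.0745).

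**Figure D3:**
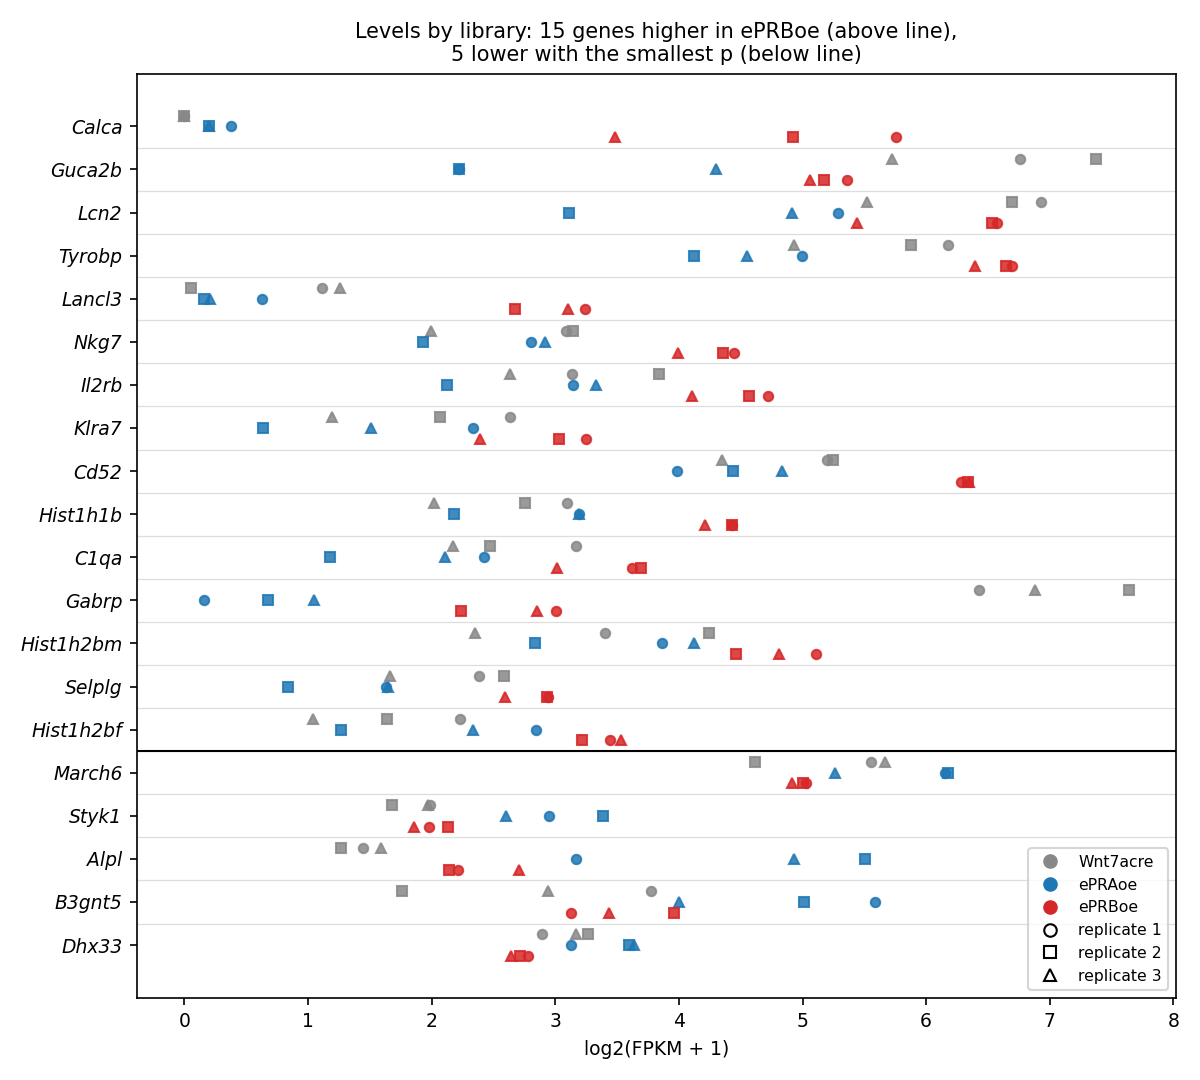
Level of the 15 named higher genes and, below the black line, March6 and the 4 next genes with the smallest p, in all 9 libraries. The horizontal axis is log2(FPKM + 1), with color for genotype and shape for replicate. In every gene shown the 3 red ePRBoe points lie apart from the 3 blue ePRAoe points, and ePRAoe replicate 2 (blue square) is often the point farthest from ePRBoe.

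The control group stood between the isoforms for most called genes. Among the 39 higher genes the Wnt7acre mean lay between the means of ePRAoe and ePRBoe in 23, below both in 12 and above both in 4 (Guca2b, Lcn2, Gabrp and Ctsl). Over all 11997 genes the control mean lay between in 23.6%, below both in 40.5% and above both in 35.9%. Among the 1993 genes without overlap and with ePRBoe above, the control mean lay between in 42.1%, below both in 37.2% and above both in 20.7%. Genes called for a wide gap between the isoforms more easily hold a control mean inside that gap, so these shares are a description and were not tested. All ePRBoe libraries exceeded all control libraries in 26 of the 39, and all ePRAoe libraries were under all control libraries in 11. The genes below both included the 6 histones, Calca, Hoxa11os and Tmem119. In 30 of the 39, ePRAoe replicate 2 was the lowest of the ePRAoe libraries, compared with 4826 of the 11997 genes tested.

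Among known targets of the receptor, 1 of 21 progesterone-induced genes passed the test, Calca, beside 40 of 11997 over all genes. Of the 21, 5 lay apart with ePRBoe above and 2 with ePRBoe below, beside 16.6% and 5.94% of all genes. Their median was 0.05 run-adjusted and 0.18 direct, beside 0.144 and 0.0998 over all genes. Ihh, the hedgehog ligand of the epithelium, stood at 31.9, 57.9 and 57.9 FPKM in ePRAoe and 34.4, 46.1 and 38.4 in ePRBoe (interval of the run-adjusted difference -1.09 to 0.66, adjusted p = 0.778). Areg, an EGF ligand induced by progesterone, ran from 49.1 to 196 in ePRAoe and from 62.9 to 159 in ePRBoe (adjusted p = 0.911). Fkbp5, a co-chaperone that steroid receptors induce, was at 27.0, 25.3 and 17.6 against 39.1, 54.3 and 41.1 (0.81, adjusted p = 0.0986), apart but not called. The most abundant genes of the list were Hdc and Alox15. Hdc overlapped at 588, 786 and 548 FPKM in ePRAoe and 516, 495 and 620 in ePRBoe (-0.40, adjusted p = 0.486). Alox15 lay apart with ePRBoe below, at 574, 710 and 712 against 410, 488 and 489 (-0.47, adjusted p = 0.580, direct -0.52). Of the 13 genes for the receptor and its co-chaperones 0 were called and the median was -0.18. The hedgehog list (9 tested, 0 called, 4 apart with ePRBoe above) held Ptch1, the hedgehog receptor, at 24.8, 29.0 and 39.6 against 33.0, 23.2 and 32.0 (adjusted p = 0.872), while its target Gli1 was apart at 2.99, 2.20 and 4.57 against 7.16, 7.83 and 8.55 (1.24, adjusted p = 0.0782).

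Estrogen-induced genes had 1 call of 14, Lcn2, with 3 apart above and 1 below (median 0.94 and 0.75). Over all genes, for this and the next lists, 0.333% were called, 16.6% lay apart above and 5.94% below. Ltf, the estrogen-induced secreted lactotransferrin, ranged from 0.111 to 8.10 FPKM in ePRAoe and from 8.12 to 70.2 in ePRBoe (3.62, adjusted p = 0.113), with the groups barely apart. Implantation and receptivity genes (24 tested) had 0 called, 4 apart above and 2 below (median 0.24), near the shares over all genes. Ion and water transport genes (17) had only Gabrp called, with 4 above and 2 below (0.51 run-adjusted and 0.21 direct). The Wnt list (25) had 0 called and 7 apart, all above (0.48), and the prostaglandin list (13) had 0, 4 above and 2 below (0.20). None was called among 10 EGF ligands and receptors (median -0.36), 12 Notch genes (0.31, direct 0.19), 25 genes of BMP, TGF-beta and activin signalling (0.33), 10 other steroid receptors and coregulators (0.36, direct 0.14), 22 cholesterol synthesis genes (0.15, direct 0.02), 19 genes of fatty acid synthesis and uptake (-0.03, direct 0.01), 28 glutathione and redox genes (0.18), 15 heat shock genes (-0.28) or the 1 red blood cell gene. Immediate early genes (21, 0 called, median -0.66 and -0.30) stood highest in ePRAoe replicate 2, where Fos was at 125 FPKM against 20.4 and 16.5 in the other ePRAoe libraries and 9.30 to 15.8 in ePRBoe.

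**Figure D4:**
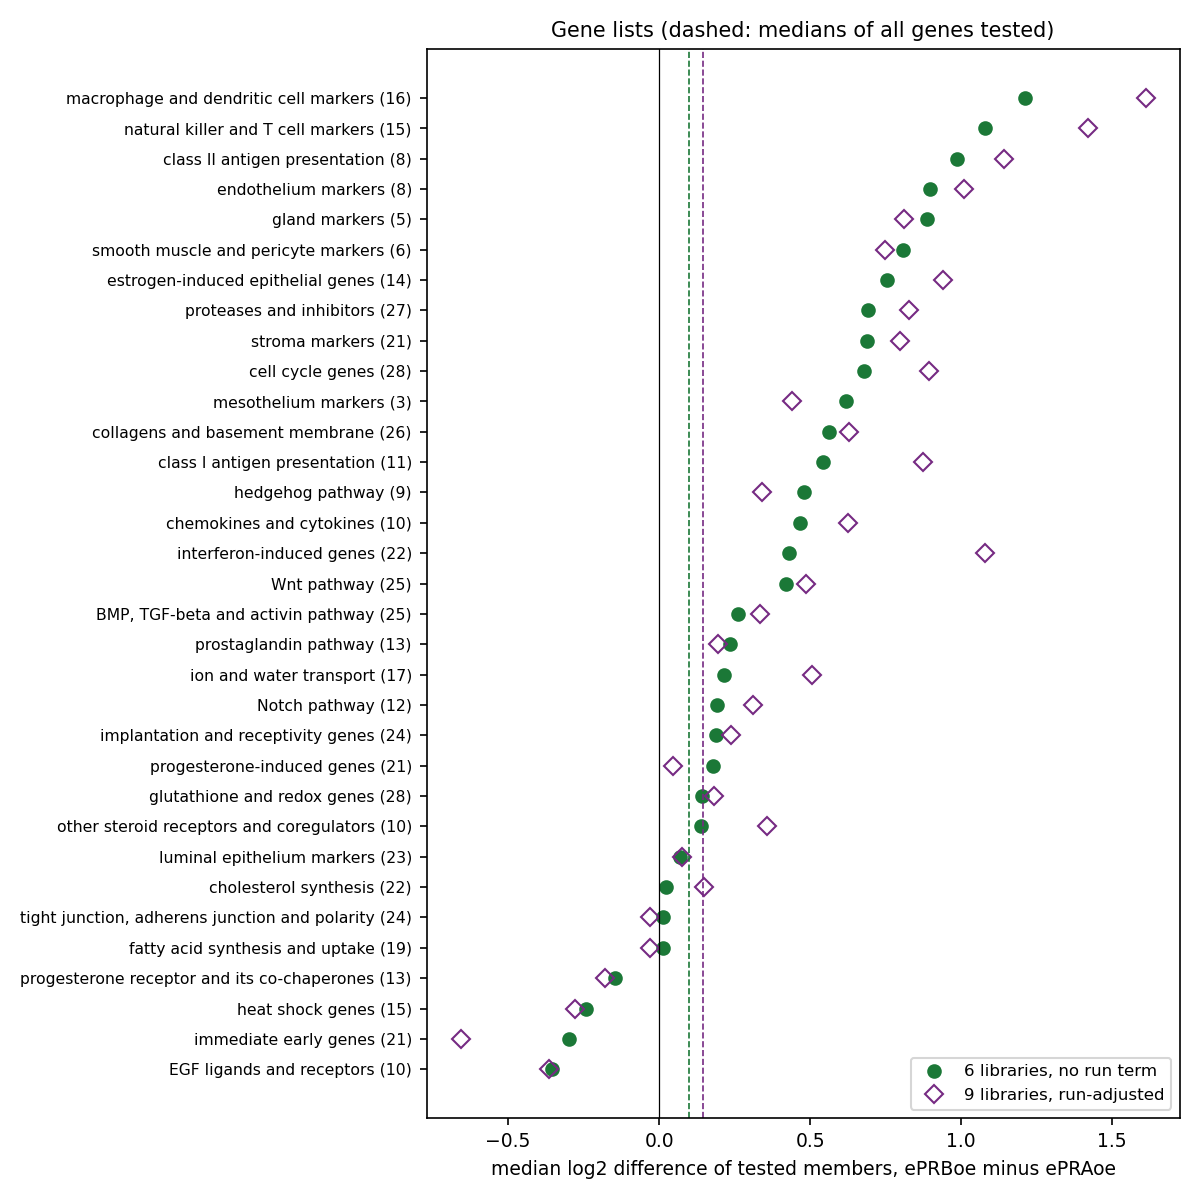
Median log2 difference, ePRBoe minus ePRAoe, of the tested members of each gene list (number in brackets), from the 6 libraries without a run term (filled circles) and the run-adjusted 9 libraries (open diamonds), with the medians of all genes as dashed lines. Immune lists lie at the upper right, up to 1.61 run-adjusted, and immediate early and EGF lists at the lower left.

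The number of calls depended on the run term and on single libraries, as the counts by setting show.

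**Figure D5:**
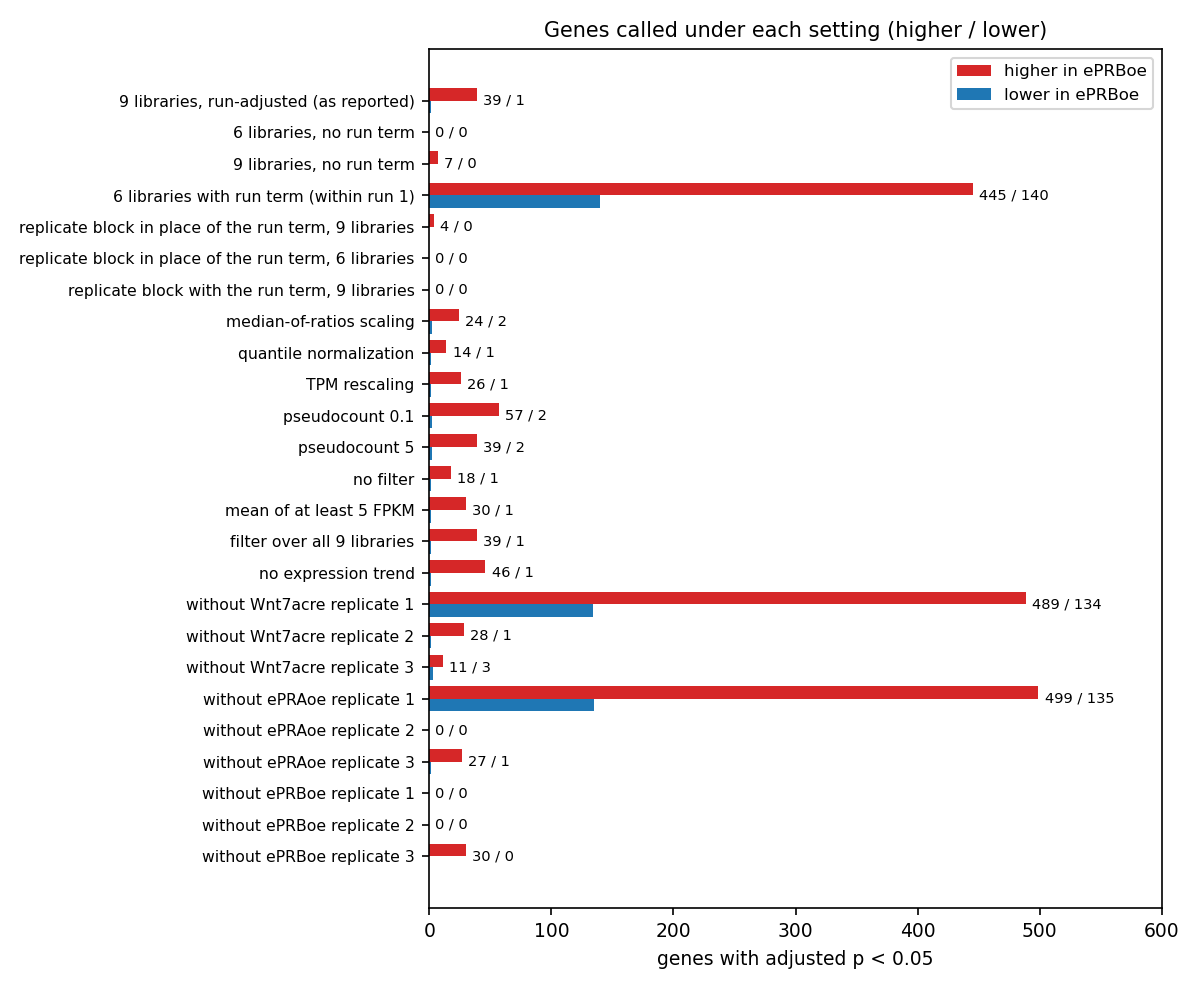
Genes with an adjusted p under 0.05 (horizontal axis, red for higher and blue for lower in ePRBoe) in each setting listed on the vertical axis. The counts are 39 and 1 as reported, 0 and 0 with 6 libraries and no run term, and 499 and 135 without ePRAoe replicate 1. The setting within run 1 rests on 1 ePRAoe library, so its counts measure no spread within ePRAoe.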

How the data were processed

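RNA-seq of 9 laser-captured libraries was used. The authors deposited 1 table of FPKM for 15158 gene symbols, per the file headers. STAR 2.5.2b, featureCounts 1.5.0-p1 of Subread, edgeR 3.28.0, limma 3.42.2 and mm10 are named in the submitters' processing notes. Which annotation, strand setting and gene lengths were used is not stated there. Read depth is unknown, so no counting intervals were computed. FPKM summed to 272213 to 314010 per library.

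Values were taken as log2(FPKM + 1), so folds of low genes are understated. Genes with at least 1 FPKM in 3 of the 6 isoform libraries were tested with limma 3.58.1 (R 4.3.3, two-sided, moderated variances with an expression trend, Benjamini-Hochberg adjustment over 11997 genes, threshold 0.05). The main fit used 9 libraries with genotype and run. The run was read from the labels' library descriptions. The fits were tested on simulated data.

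The members and the 34 gene lists were chosen with earlier results of these data known. The naming rule picked Pgr and Wnt7a. In each direction it picked the 15 largest differences among called genes without overlap whose higher group averaged 5 FPKM or more. Where fewer than 5 passed, it picked the 5 smallest p. Per list it picked up to 3 called members or, where fewer than 2 were called, the 2 most abundant besides any called one. Not all list members picked this way are described. Other list members are named as examples, chosen after their values were seen. GENCODE M21 held 99.0% of the tested symbols. The settings varied were the run term, replicate number, scaling, pseudocount, filter, trend and single libraries.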

Additional observations from a re-analysis of the deposited data

How the results depend on the processing

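The 40 called genes kept their direction in every setting run, except that only 32 of them were tested under a mean of at least 5 FPKM, and all 32 kept it there; the number past the threshold moved. Against 39 genes higher, 1 lower and 12 called list members as reported, the numbers were 0, 0 and 0 in the 6 libraries without a run term, 7, 0 and 2 in 9 libraries without it, and 445, 140 and 64 within run 1. Median-of-ratios scaling gave 24 higher and 2 lower, quantile normalization 14 higher and 6 list members, no filter 18 and 7, and a pseudocount of 0.1 or 5 gave 2 lower each. Leaving out 1 library of the 9 gave 0 to 499 higher, 0 to 135 lower and 0 to 66 list members: over 600 calls in all without Wnt7acre replicate 1 or ePRAoe replicate 1, 11 higher and 3 lower without Wnt7acre replicate 3, and 0 without ePRAoe replicate 2, ePRBoe replicate 1 or ePRBoe replicate 2. With 6 libraries and no run term, settings chosen after seeing the data gave 0 to 44 higher, 0 to 14 lower and 0 to 9 list members when 1 library was left out, 4, 0 and 2 with a pseudocount of 0.1, and 0, 0 and 0 with median-of-ratios scaling. Genes without overlap numbered 1993 above and 713 below, against 1316 and 1525 with median-of-ratios scaling and 1237 and 1611 after quantile normalization. The cause of these moves was not tested.

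The Pgr difference changed sign without Wnt7acre replicate 2 (0.10), ePRAoe replicate 2 (0.25) or ePRAoe replicate 3 (0.10), over a range of -0.39 to 0.25, and that of Wnt7a in the 6 libraries without ePRBoe replicate 1 (-0.016); none passed. The deviations of same-numbered ePRAoe and ePRBoe libraries from their group means correlated at 0.156, -0.0863 and 0.0775. Those of differently numbered libraries correlated from -0.319 to 0.324. Deviations within a group of 3 are tied to each other, so these correlations cannot show whether replicate numbers pair the samples. With the replicate block in place of the run term there were 4 genes higher, 0 lower and 2 list members in 9 libraries and 0, 0 and 0 in 6, and with the replicate block and the run term 0, 0 and 0 (1221 genes at an unadjusted p under 0.05 with limma). The unknown read depth limits what can be said of genes near 1 FPKM.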

Other observations

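Some genes outside the naming rule, chosen after their values were seen and not past the threshold, showed wide gaps between the isoforms. Mmp7, a secreted metalloprotease of epithelium, was at 0.818 to 6 FPKM in ePRAoe, 56.4, 41.9 and 19.5 in ePRBoe and 62.4, 378 and 305 in Wnt7acre (run-adjusted difference 3.61, SE 0.65, adjusted p = 0.0663). Spp1, a secreted attachment protein, was at 5.41, 5.04 and 7.25 in ePRAoe, 24.7, 42.9 and 13.4 in ePRBoe and 31.8, 137 and 83.7 in Wnt7acre (1.87, adjusted p = 0.143). For both genes ePRBoe lay apart from ePRAoe on the side of the controls.

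For Ptgds and Slc5a5 every control library lay below every ePRBoe library. Ptgds, the lipocalin-type prostaglandin D synthase, had 2.65, 0.661 and 0.472 FPKM in ePRAoe, 13.7, 36.4 and 6.89 in ePRBoe and 0.378 to 1.89 in Wnt7acre (3.22, adjusted p = 0.0993). Slc5a5, the sodium-iodide transporter, had 19.2, 87.5 and 26.4 in ePRAoe, 152, 102 and 141 in ePRBoe and 2.80 to 6.21 in Wnt7acre (1.01, adjusted p = 0.191; direct 1.84). Within run 1 Slc5a5 in ePRAoe replicate 2 stood much nearer to ePRBoe than in the other ePRAoe libraries. Cftr lay the other way, with the controls near ePRBoe. This chloride channel of secretory epithelium had 5.22, 8.77 and 14.7 in ePRAoe, 4.496, 3.90 and 3.22 in ePRBoe and 3.40 to 4.82 in Wnt7acre (-1.09, adjusted p = 0.182).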
